A study of Mus musculus with 29 samples.

Results

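The genes described here are 10 early response genes: the Fos family members Fos, Fosb, Fosl1 and Fosl2, the Jun family members Jun and Junb, and Atf3, Egr1, Myc and Gem. They were chosen by name, all 10 had a probe that passed the filter on dim signal, and they stand among 15622 genes measured in podocytes sorted from injured mouse kidneys. The series holds 29 single-colour Agilent arrays from 16 male C57BL/6J mice of the Pod-hCD25T/G model, aged 8 weeks per the labels, with 4 mice at each of days 0, 1, 4 and 7. TdTomato podocytes had n = 4, 4, 4 and 2 arrays at days 0, 1, 4 and 7, and EGFP podocytes had n = 4, 3, 4 and 4, with 13 mice giving both. The treatment was a heminephrectomy, removal of a kidney, and then 25 ng of LMB2 per gram of body weight, and day 0 mice were sampled before the injection. Whether day 0 mice had had surgery is not stated in the labels. LMB2 is an immunotoxin: an anti-human CD25 antibody fragment fused to part of a Pseudomonas exotoxin, which stops elongation of proteins on the ribosome. The labels do not say what the colours stand for; by the known design of the model, TdTomato podocytes carry human CD25 and can be hit by the toxin, while EGFP podocytes in the same glomeruli do not carry it. Each mouse is a separate animal, and the replicates of a group lay mostly on different array slides. The spread between replicates is thus the spread between mice together with that between slides.

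Immediate early genes are switched on within minutes of a stimulus, from factors already in the cell, through kinase cascades that act on serum response factor, CREB and related proteins. Their transcripts are short-lived, because AU-rich elements in them recruit decay factors and because newly made repressors close the genes again. When translation is blocked both brakes can fail and the transcripts build up, which is called superinduction. Fos and Jun proteins pair through a leucine zipper to form AP-1, EGR1 is a zinc finger factor, MYC drives growth and ribosome production, and GEM is a small GTPase of the RGK group that restrains calcium channels and the cytoskeleton. Enzymatic dissociation and sorting of tissue are known to induce Fos, Jun, Egr1 and Atf3 in many cell types.

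The promoters of members were read from the RefSeq table (GRCm38.p6), from 250 bases before to 50 bases after the gene start, to show the control sequence of genes that took opposite courses. The table held 6 of the 10 genes, namely Atf3, Fos, Fosb, Fosl2, Jun and Junb. The Fosl2 window lies at chr5:32136222-32136521 on the plus strand, that of Fos at chr12:85473640-85473939 on the plus strand, that of Fosb at chr7:19309996-19310295 on the minus strand and that of Jun at chr4:95052173-95052472 on the minus strand. Capitals mark motif matches, read 5′ to 3′ on the gene's strand.
Fosl2: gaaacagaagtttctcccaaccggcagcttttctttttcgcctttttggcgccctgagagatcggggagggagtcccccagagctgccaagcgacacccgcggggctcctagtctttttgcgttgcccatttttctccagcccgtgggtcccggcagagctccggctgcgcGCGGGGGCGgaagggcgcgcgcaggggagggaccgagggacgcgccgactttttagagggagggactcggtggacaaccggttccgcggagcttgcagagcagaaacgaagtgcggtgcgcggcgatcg
Fos: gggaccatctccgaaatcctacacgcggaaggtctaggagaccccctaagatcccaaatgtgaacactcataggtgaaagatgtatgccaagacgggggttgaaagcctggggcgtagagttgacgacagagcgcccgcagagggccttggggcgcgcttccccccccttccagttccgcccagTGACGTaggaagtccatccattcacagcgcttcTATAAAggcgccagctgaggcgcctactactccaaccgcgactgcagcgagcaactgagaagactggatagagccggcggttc
Fosb: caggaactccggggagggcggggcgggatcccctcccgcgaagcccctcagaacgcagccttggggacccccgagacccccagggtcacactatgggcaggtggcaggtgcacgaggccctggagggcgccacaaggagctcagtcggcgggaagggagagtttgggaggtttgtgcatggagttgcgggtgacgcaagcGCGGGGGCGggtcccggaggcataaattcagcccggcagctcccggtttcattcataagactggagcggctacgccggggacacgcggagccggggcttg
Jun: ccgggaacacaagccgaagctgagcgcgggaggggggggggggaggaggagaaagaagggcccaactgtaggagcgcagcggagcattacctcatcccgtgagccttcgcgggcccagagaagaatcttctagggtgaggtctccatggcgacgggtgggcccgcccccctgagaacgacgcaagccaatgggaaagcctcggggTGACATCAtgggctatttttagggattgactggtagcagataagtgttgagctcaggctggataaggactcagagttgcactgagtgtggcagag

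The searched motifs were TGANTCA (AP-1), TGACATCA (AP-1-like), TGACGTCA (CRE), its core TGACGT, which the full CRE contains, GCGNGGGCG (EGR), CACGTG (E-box), TATAAA and the CArG box bound by serum response factor, each on both strands. Fosl2 held GCGGGGGCG from -79 to -71, counted from the gene start, and Fosb the same letters from -50 to -42, a motif found in 5.55% of all 32851 promoter windows of this length. Fos held TGACGT from -66 to -61 and TATAAA from -33 to -28, which stood in 7.51% and 13.6% of all windows. Jun held TGACATCA from -45 to -38 (3.62% of windows), Atf3 the reverse complement of TGACGT from -8 to -3 and Junb TATAAA from 1 to 6. No window of the 6 held the AP-1 motif, the full CRE, the E-box or a CArG box, which 7.81%, 1.79%, 7.15% and 1.63% of all windows held. Sequence outside the windows was not searched, so these genes may hold such sites further from the gene start. The windows of Fos, Jun, Fosl2 and Fosb were 58.7%, 60%, 64.7% and 68.3% GC, against a median of 52.7% over all windows. Fosl2 and Fosb thus shared a motif and took opposite courses at day 1, as described below.

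All values are log2 of the scanner's processed signal minus the array's own 75th percentile, so a value of 0 is that percentile. Such a level can be compared across arrays for a probe, not between probes. Between 48.2% and 65.5% of spots were well above background on an array and none was saturated. Tests are limma's moderated tests in a fit of 8 group means, with adjusted p over all 15622 genes. In bulk RNA of sorted cells, fewer cells of a kind and less RNA per cell cannot be told apart. The scanner files of mouse MC221 at day 7 did not match their columns in the authors' series matrix: the correlations were 0.9863 (EGFP) and 0.9945 (TdTomato), below those with another mouse's file (0.9932 and 0.9950). Day 7 changes of members called against day 0 are therefore also given without both arrays of MC221. That leaves 1 TdTomato array there, assumed to vary like the other groups. Other day 7 comparisons, and the related lists and markers at day 7, include MC221 unless said otherwise. Podocyte identity was checked on 10 defining markers, which were well above background on every array. Their summed linear signal (75th percentile = 1) was 1295 to 1775 in TdTomato at day 4, against 2045 to 3437 at day 0, and 1632 to 3131 across EGFP arrays of all days. In TdTomato 6, 8 and 5 of the 10 podocyte markers fell at days 1, 4 and 7 and none rose, while none was called in EGFP on any day. The median log2 change over all genes was -0.13 in TdTomato at day 1 and -0.29 at day 4.

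The 10 genes split into distinct courses. In TdTomato podocytes Myc and Gem rose by far at day 1 and were still high at day 7, Fosl2 rose at day 1 and was back by day 4, and Fosl1 rose and stayed up. Fos, Fosb, Junb and Atf3, well above background on every day 0 array, fell by day 4, and Jun and Egr1 were not called on any day against day 0. In EGFP podocytes none of the 10 was called at days 1 and 4, and Fosl1, Myc and Gem rose at day 7. At day 1 TdTomato had 4 members higher and 2 lower, against 23.8% and 27.9% of all genes called higher and lower. At day 4 it had 3 higher and 5 lower, against 21.4% and 35.9% of all genes, and at day 7 it had 3 higher and 2 lower, against 10.9% and 8.47%. Without both MC221 arrays the day 7 count was 3 in place of 5, with Fosb and Atf3 no longer called. In EGFP 0.0256% of all genes were called at day 1 and 0.595% at day 4, and 5.34% were higher and 1.92% lower at day 7. Unadjusted p was under 0.05 for 2 members at EGFP day 1 and 3 at EGFP day 4. Among all 15622 genes it was so for 467 and 1224. The median log2 change of the 10 members was 0.47, -0.70 and -0.38 in TdTomato at days 1, 4 and 7, beside -0.13, -0.29 and -0.14 over all genes. In EGFP it was -0.23, 0.10 and 0.05, beside -0.02, 0.07 and -0.00. The 3 later days of a population share its day 0 arrays, so their changes are not independent of each other.

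**Figure D1:**
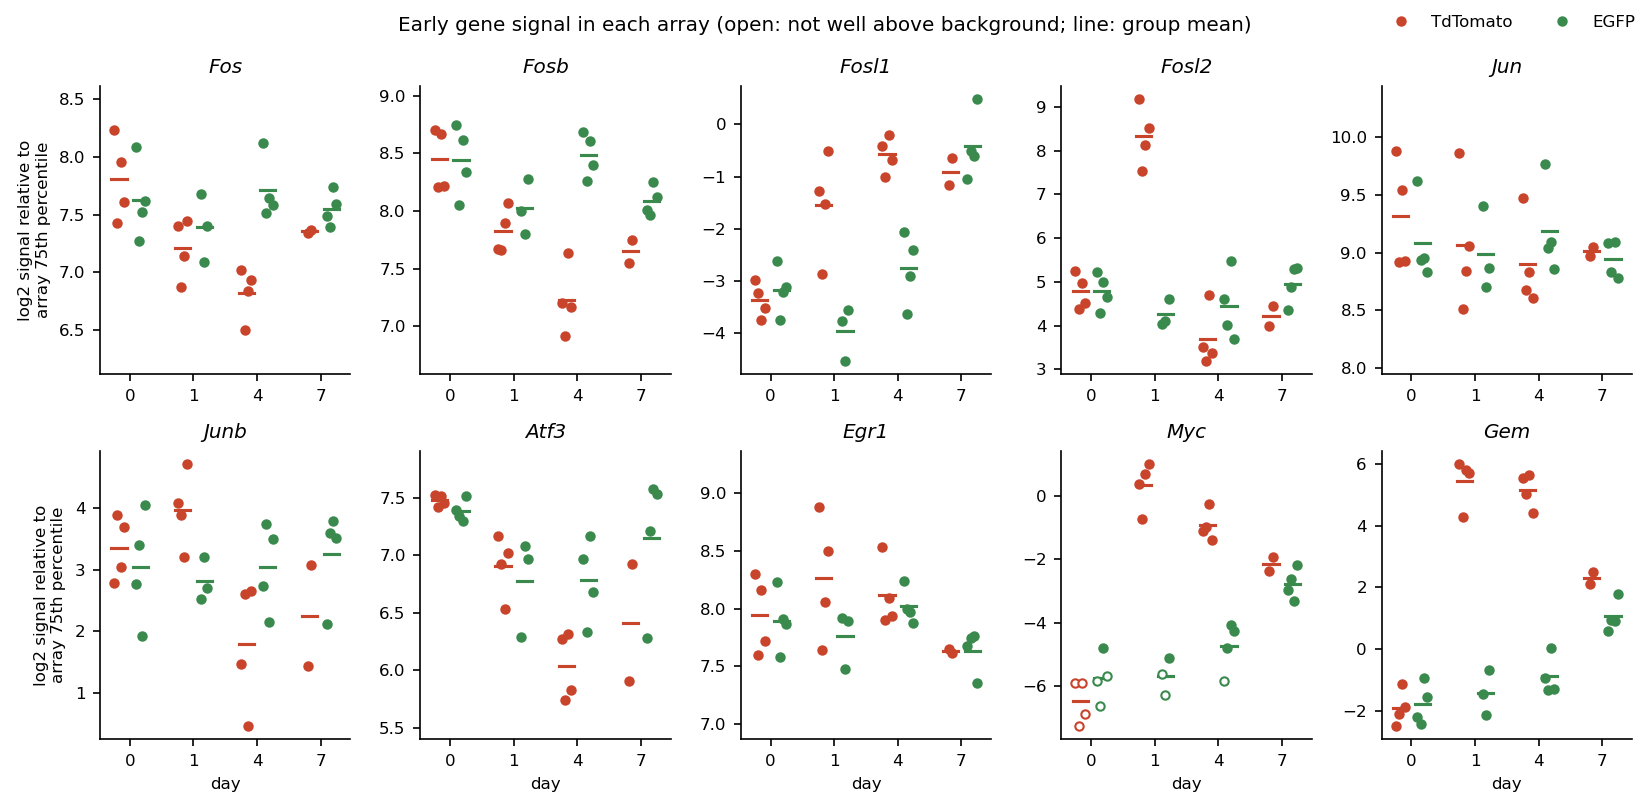
Signal of each early gene in every array (log2 relative to the array's 75th percentile, y axis) by day (x axis) for TdTomato and EGFP podocytes; open points were not well above background and lines are group means. All 4 TdTomato arrays at day 1 lie above every other array for Fosl2, while for Jun every pair of groups compared overlaps.

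Fosl2 encodes FRA2, a Fos family member that lacks the strong activation domain of Fos. In TdTomato podocytes its brighter probe read 5.26, 4.39, 4.97 and 4.53 at day 0, 9.18, 7.54, 8.14 and 8.52 at day 1, 3.52, 3.19, 4.71 and 3.38 at day 4, and 4.00 and 4.46 at day 7. The day 1 arrays stand clear of all others, and the day 4 arrays lie mostly under day 0 with some overlap. The rise at day 1 was 3.56 ± 0.38 log2 (SE), or 11.8-fold (limma adjusted p = 4e-08). Fosl2 then fell by 4.65 ± 0.38 at day 4 against day 1 (adjusted p = 6.2e-10), to below day 0 (-1.09 ± 0.38, adjusted p = 0.018). That last call was lost without TdTomato day 0 MC122 (-0.93), day 4 MC692 (-0.92) or day 4 MC823 (-0.98), with adjusted p of 0.062, 0.065 and 0.050. EGFP podocytes read 5.23, 4.29, 5.01 and 4.65 at day 0, 4.05, 4.11 and 4.62 at day 1, 4.62, 4.01, 5.47 and 3.70 at day 4, and 4.35, 4.88, 5.29 and 5.33 at day 7. All these EGFP groups overlap. At day 1 TdTomato exceeded EGFP by 4.09 ± 0.41 (17-fold, adjusted p = 2.2e-08), and the change from day 0 differed between the populations by 4.09 ± 0.56 (adjusted p = 5.3e-06).

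A second, dimmer Fosl2 probe also peaked in TdTomato at day 1, with TdTomato means of -2.27, 1.32, -2.80 and -2.0 and EGFP means of -2.19, -2.53, -2.43 and -1.71 at days 0, 1, 4 and 7. Against day 0 it gave 3.58 at day 1, -0.53 at day 4 and 0.27 at day 7, where the brighter probe gave 3.56, -1.09 and -0.56, so the signs differ at day 7. Gem also had a second probe, with TdTomato means of -4.27, 3.67, 2.11 and -0.22 and EGFP means of -4.09, -3.30, -3.42 and -0.73. In Gem the dimmer probe had lost more of its day 1 level by day 4 than the brighter one. The other 8 members had 1 probe each.

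**Figure D2:**
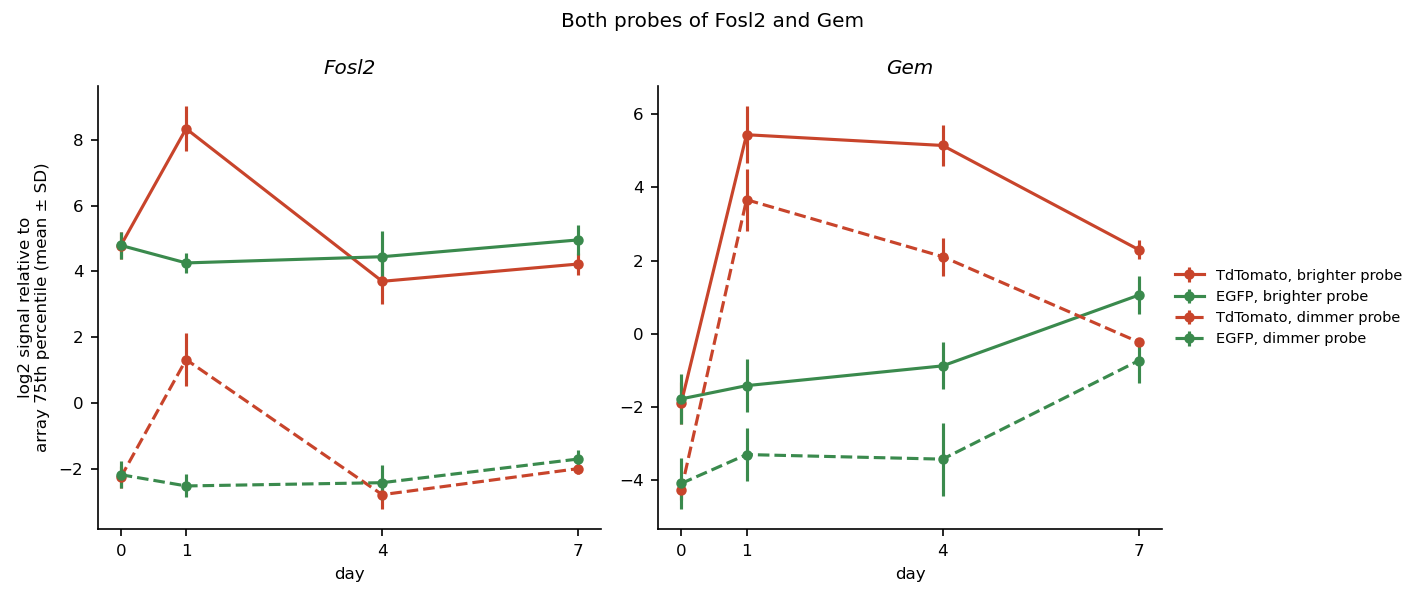
Group means ± SD of both probes of Fosl2 and of Gem (log2 signal relative to the array's 75th percentile, y axis) by day (x axis), brighter probe as full and dimmer probe as dashed lines. Both Fosl2 probes peak at day 1 in TdTomato and are back near day 0 by day 4, while both Gem probes are highest at day 1 and remain above day 0 at day 7.

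Fosl1 encodes FRA1, the other Fos family member without a strong activation domain, and is itself a target of AP-1. TdTomato podocytes read -2.98, -3.22, -3.74 and -3.51 at day 0, -1.28, -2.86, -1.52 and -0.51 at day 1, -0.42, -1.0, -0.20 and -0.69 at day 4, and -1.17 and -0.64 at day 7. The later days all lie above day 0, by little for MC541 at day 1. The rise was 1.82 ± 0.41 (3.53-fold, limma adjusted p = 0.00053) at day 1, 2.79 ± 0.41 (6.89-fold, adjusted p = 4.5e-06) at day 4 and 2.46 ± 0.50 (5.49-fold, adjusted p = 0.0011) at day 7. In EGFP podocytes Fosl1 read -2.61, -3.75, -3.20 and -3.12 at day 0, -3.77, -4.53 and -3.56 at day 1, -2.07, -3.62, -2.91 and -2.40 at day 4, and -1.05, -0.51, -0.60 and 0.48 at day 7. It thus rose late there, by 2.75 ± 0.41 (6.74-fold, adjusted p = 5e-05) at day 7 against day 0 and by 2.33 ± 0.41 (adjusted p = 0.00062) against day 4. TdTomato exceeded EGFP by 2.41 ± 0.44 (5.32-fold, adjusted p = 6.2e-05) at day 1 and by 2.17 ± 0.41 (adjusted p = 8.6e-05) at day 4, and the change from day 0 differed by 2.60 ± 0.60 and 2.37 ± 0.58 (adjusted p = 0.0012 and 0.0023). The signal is dim, and with normexp background correction the TdTomato change was 0.70 at day 1, 1.27 at day 4 and 1.10 at day 7, still called, while the difference in day 1 change between the populations (2.60 above) was 0.86 and lost its call (adjusted p = 0.061). Without MC221 the day 7 rise was 2.72 in TdTomato and 2.96 in EGFP (adjusted p = 0.0084 and 9.9e-05).

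Fos and Fosb encode the activating Fos proteins, and both were bright before the toxin. Fos in TdTomato podocytes read 8.23, 7.43, 7.96 and 7.61 at day 0, 7.40, 6.87, 7.14 and 7.44 at day 1, 7.02, 6.50, 6.84 and 6.93 at day 4, and 7.34 and 7.37 at day 7. In EGFP podocytes it read 8.09, 7.27, 7.52 and 7.62 at day 0, 7.68, 7.09 and 7.40 at day 1, 8.12, 7.51, 7.64 and 7.58 at day 4, and 7.49, 7.39, 7.74 and 7.59 at day 7. The TdTomato arrays of day 4 lie below all those of day 0 and below all EGFP arrays of day 4, and the EGFP days overlap. Fos fell in TdTomato by 0.59 ± 0.20 at day 1 (limma adjusted p = 0.014) and by 0.98 ± 0.20 at day 4 (adjusted p = 0.0002), to 0.506 times its day 0 signal, and the day 7 change was -0.45 ± 0.24 (adjusted p = 0.2). The day 1 call was lost without day 0 MC122 (-0.45, adjusted p = 0.069), without day 1 MC541 (-0.48, adjusted p = 0.056) and with only both groups in the fit (adjusted p = 0.064). At day 4 TdTomato minus EGFP was -0.89 ± 0.20 (adjusted p = 0.00049), and the change from day 0 differed by -1.07 ± 0.28 (adjusted p = 0.0037).

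Fosb ran alongside. TdTomato podocytes read 8.70, 8.21, 8.67 and 8.22 at day 0, 7.67, 7.66, 7.90 and 8.07 at day 1, 7.20, 6.92, 7.64 and 7.17 at day 4, and 7.55 and 7.75 at day 7. EGFP podocytes read 8.75, 8.05, 8.62 and 8.34 at day 0, 8.00, 7.80 and 8.28 at day 1, 8.69, 8.26, 8.61 and 8.40 at day 4, and 8.01, 7.97, 8.25 and 8.12 at day 7. No TdTomato array of a later day reached the lowest of day 0. Fosb fell in TdTomato by 0.62 ± 0.18 at day 1 (limma adjusted p = 0.0042), by 1.22 ± 0.18 at day 4 (0.43 times day 0, adjusted p = 3.8e-06) and by 0.80 ± 0.22 at day 7 (adjusted p = 0.011). The day 7 call was lost without MC221 (-0.70, adjusted p = 0.14), with quantile normalization (adjusted p = 0.056) and with only both groups in the fit (adjusted p = 0.075). Against EGFP it was lower at day 4 by -1.26 ± 0.18 (adjusted p = 2.5e-06), with a difference in change of -1.27 ± 0.25 (adjusted p = 0.00035).

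Jun and Junb encode partners of the Fos proteins, JUN being the stronger activator. Jun in TdTomato podocytes read 9.88, 8.92, 9.54 and 8.93 at day 0, 9.86, 8.51, 8.84 and 9.06 at day 1, 9.47, 8.68, 8.83 and 8.61 at day 4, and 8.97 and 9.05 at day 7. EGFP arrays ran between 8.70 and 9.77. Groups overlapped throughout, and the TdTomato changes of -0.25, -0.42 and -0.31 at days 1, 4 and 7 were not called (limma adjusted p = 0.49, 0.2 and 0.56). With slide as a block the day 4 change of -0.42 was called (adjusted p = 0.027). Junb in TdTomato read 2.79, 3.89, 3.05 and 3.69 at day 0, 4.07, 3.89, 3.20 and 4.71 at day 1, 1.48, 2.60, 0.47 and 2.65 at day 4, and 1.44 and 3.07 at day 7. In EGFP it read 2.77, 3.40, 1.93 and 4.05 at day 0, 2.53, 3.20 and 2.70 at day 1, 2.74, 3.74, 2.16 and 3.50 at day 4, and 2.12, 3.60, 3.79 and 3.51 at day 7. Its arrays spread widely, between mice and between slides, and only the TdTomato arrays of day 4 lie apart from day 0. Junb fell there by 1.56 ± 0.52 (0.339 times day 0, adjusted p = 0.014) and against day 1 by 2.17 ± 0.52 (adjusted p = 0.0013). The fall against day 0 was -1.12 and not called without TdTomato day 4 MC822 (adjusted p = 0.075). The day 4 difference from EGFP, -1.23 ± 0.52 (adjusted p = 0.046), was not called without any one of TdTomato MC151 (-1.13), TdTomato MC822 (-0.79), EGFP MC151 (-1.33), EGFP MC692 (adjusted p = 0.14) or EGFP MC823 (-1.08).

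Atf3 encodes a stress-induced bZIP repressor that pairs with Jun proteins, and it sits downstream of both the integrated stress response and AP-1. In TdTomato podocytes it read 7.52, 7.42, 7.51 and 7.45 at day 0, 7.17, 6.92, 6.53 and 7.02 at day 1, 6.27, 5.74, 6.32 and 5.83 at day 4, and 5.91 and 6.92 at day 7. In EGFP podocytes it read 7.39, 7.34, 7.30 and 7.51 at day 0, 6.29, 7.08 and 6.97 at day 1, 6.97, 6.33, 7.17 and 6.68 at day 4, and 6.28, 7.21, 7.57 and 7.53 at day 7. The day 0 mice lie close together and above every array of days 1 and 4 in both populations. Atf3 fell in TdTomato by 1.44 ± 0.26 at day 4 (0.37 times day 0, limma adjusted p = 6.1e-05) and by 1.06 ± 0.32 at day 7 (adjusted p = 0.021). Without MC221 the day 7 change was -0.55 (adjusted p = 0.29), and with mouse as a random replicate block it was -0.82 (adjusted p = 0.058). The day 1 change of -0.56 ± 0.26 was not called (adjusted p = 0.074), but was in the authors' values (adjusted p = 0.018) and with only both groups in the fit (adjusted p = 0.031). In EGFP the changes were -0.61 ± 0.28 and -0.60 ± 0.26 at days 1 and 4, not called after adjustment, with unadjusted p = 0.04 and 0.029. TdTomato stood below EGFP at day 4 by -0.75 ± 0.26 (adjusted p = 0.016), a call lost without TdTomato day 4 MC692 (-0.65), without EGFP day 4 MC822 (-0.62) and with quantile normalization (-0.56).

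Egr1 encodes the zinc finger factor EGR1, a direct target of serum response factor. TdTomato podocytes read 8.30, 7.60, 8.16 and 7.72 at day 0, 8.88, 7.64, 8.06 and 8.50 at day 1, 8.54, 7.90, 8.09 and 7.94 at day 4, and 7.65 and 7.62 at day 7. EGFP podocytes read 8.23, 7.58, 7.91 and 7.87 at day 0, 7.92, 7.48 and 7.89 at day 1, 8.24, 8.00, 7.97 and 7.88 at day 4, and 7.68, 7.75, 7.76 and 7.36 at day 7. The TdTomato changes of 0.32 ± 0.22, 0.17 and -0.31 at days 1, 4 and 7 were within the spread of the arrays (limma adjusted p = 0.23, 0.52 and 0.45). At day 1 the change was 0.53 and called without MC541 (adjusted p = 0.036), and 0.35 and called with quantile normalization (adjusted p = 0.049). The difference between the populations at day 1 was 0.51 ± 0.24 (adjusted p = 0.079), and 0.72 without TdTomato day 1 MC541 (adjusted p = 0.0094).

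Myc encodes a growth regulator with a short-lived transcript that AU-rich elements destabilise. In TdTomato podocytes it read -5.90, -7.27, -5.90 and -6.90 at day 0, 0.37, -0.71, 0.70 and 1.02 at day 1, -1.11, -0.96, -0.24 and -1.38 at day 4, and -2.38 and -1.93 at day 7. No day 0 array was well above background and every later TdTomato array was. The fold changes are thus bounds set against the array's lowest signal well above background, over all probes. They hold for the scanner's processed signal only, and another background correction gave smaller changes, as given below. Myc was at least 36.3-fold higher at day 1 (log2 change 6.84 ± 0.44, limma adjusted p = 1.4e-11), at least 15.1-fold at day 4 (adjusted p = 3e-10) and at least 6.41-fold at day 7 (adjusted p = 3.3e-06). It fell by 1.27 ± 0.44 at day 4 against day 1 (adjusted p = 0.02), a call lost without day 1 MC542 (-1.15), day 1 MC831 (-1.04) or day 4 MC823 (-1.12).

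EGFP podocytes carried Myc later and at lower signal. They read -5.85, -6.63, -4.79 and -5.69 at day 0, -5.61, -6.29 and -5.13 at day 1, -5.84, -4.79, -4.08 and -4.27 at day 4, and -2.96, -2.61, -3.31 and -2.18 at day 7. The arrays well above background numbered 1 of 4, 1 of 3, 3 of 4 and 4 of 4 on these days. With day 0 mostly not above background, the fitted day 7 rise of 2.98 ± 0.44 (limma adjusted p = 5.5e-05) has no reliable size. Against day 4, where 3 of 4 arrays were above background, it was 1.98 ± 0.44 (adjusted p = 0.0073) against day 4. With normexp background correction these became 0.69 and 0.37 and were not called (adjusted p = 0.086 and 0.65). The same correction gave 2.49, 1.48 and 0.97 for TdTomato at days 1, 4 and 7, all called. These lie below the bounds given above, which are 5.18, 3.91 and 2.68 in log2. TdTomato exceeded EGFP at day 1 (fitted difference 6.02 ± 0.48, adjusted p = 6.4e-10) and by 3.82 ± 0.44 at day 4 (adjusted p = 1.9e-07). The fitted difference in change was 6.77 ± 0.65 at day 1 and 4.58 ± 0.63 at day 4 (adjusted p = 5.1e-08 and 5.9e-06). The day 1 difference and both differences in change rest on arrays mostly not above background, so their sizes are not exact.

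The brighter Gem probe was well above background on every array. The dimmer one was so on 3 of 4 arrays at TdTomato day 0 and at EGFP day 4, and on every array of the other groups. In TdTomato the brighter probe read -2.48, -2.09, -1.12 and -1.88 at day 0, 5.99, 4.28, 5.80 and 5.69 at day 1, 5.52, 5.03, 5.64 and 4.40 at day 4, and 2.11 and 2.49 at day 7. Days 1 and 4 overlap and stand far above day 0, and day 7 lies between. The rise was 7.33 ± 0.43 at day 1 (161-fold, limma adjusted p = 2.3e-12), 7.04 ± 0.43 at day 4 (132-fold, adjusted p = 2.4e-12) and 4.19 ± 0.52 at day 7 (18.3-fold, adjusted p = 3.1e-06). It fell by 2.85 ± 0.52 at day 7 against day 4 (adjusted p = 0.00033). EGFP podocytes read -2.19, -2.43, -0.93 and -1.55 at day 0, -1.46, -2.11 and -0.67 at day 1, -0.92, -1.32, 0.05 and -1.30 at day 4, and 0.60, 0.94, 0.90 and 1.80 at day 7. Of the later EGFP days only day 7 has every array above all of day 0, with a rise of 2.83 ± 0.43 (7.13-fold, adjusted p = 6.3e-05), and of 1.93 ± 0.43 against day 4 (adjusted p = 0.0066). The change from day 0 differed between the populations by 6.97 ± 0.63 at day 1 and 6.14 ± 0.60 at day 4 (adjusted p = 2.1e-08 and 4.3e-08). Without MC221 the day 7 rises were 4.38 in TdTomato and 2.99 in EGFP for Gem, and 4.57 and 3.04 for Myc, each still called.

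**Figure D3:**
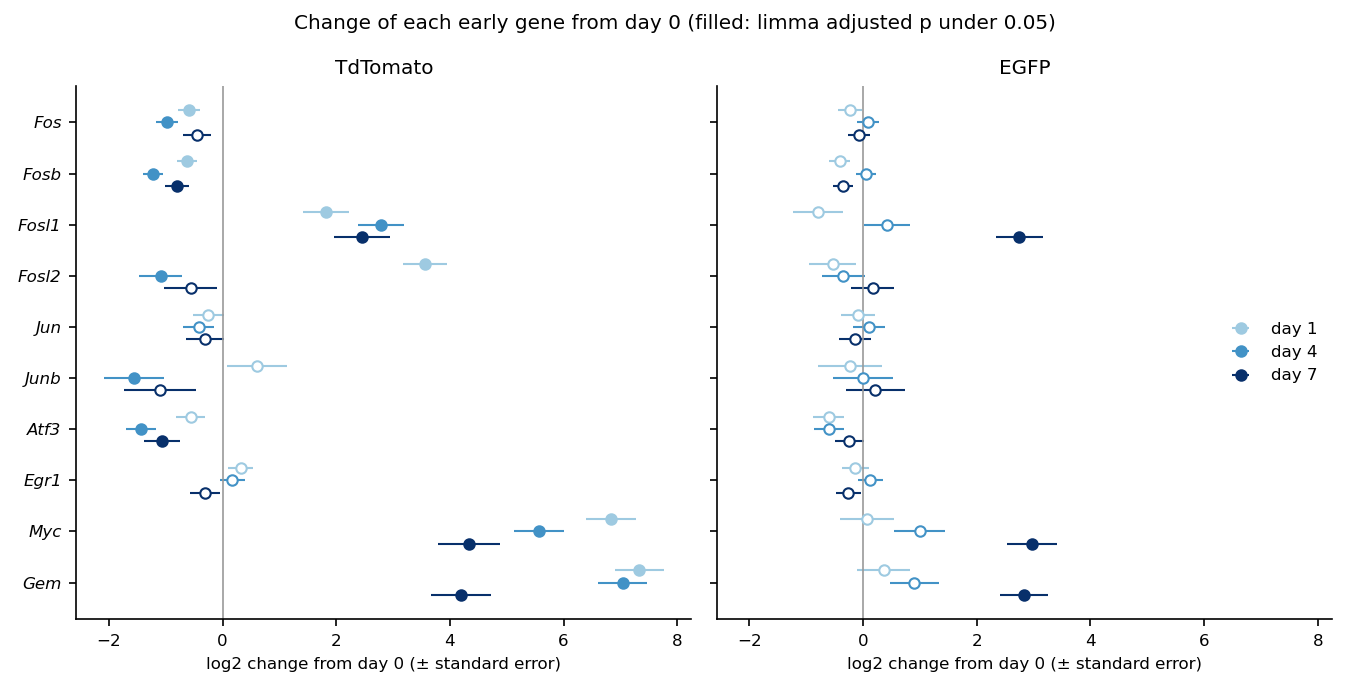
Log2 change from day 0 with its standard error (x axis) for each early gene (y axis) at days 1, 4 and 7, TdTomato on the left and EGFP on the right; filled points have a limma adjusted p under 0.05. Gem lies between 4.19 and 7.33 in TdTomato on the later days and Myc is also far right of 0, with a size that is only fitted since no TdTomato day 0 array was above background, while Fos, Fosb and Atf3 lie below 0 there.

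Successive days and the populations were set side by side by count. At TdTomato day 4 against day 1, 0 members were higher and 5 lower (Fosb -0.59, Fosl2 -4.65, Junb -2.17, Atf3 -0.87 and Myc -1.27), against 24.1% and 26.2% of all genes, and 1 was lower at day 7 against day 4 (Gem), against 11.5% higher and 13.1% lower of all genes. In EGFP 0 were called at day 4 against day 1, with 0.294% of all genes. Unadjusted p was under 0.05 there for 2 members and 1055 of all 15622 genes. At EGFP day 7 against day 4, 3 were higher (Fosl1, Myc and Gem), with 2.96% higher and 1.72% lower of all genes. TdTomato against EGFP gave 0 members at day 0, where limma called 0% of all genes (74 genes at an unadjusted p under 0.05), and no member then had an unadjusted p under 0.05. It gave 4 higher and 0 lower at day 1 (23.7% and 25.6% of all genes) and 3 higher and 4 lower at day 4 (21% and 38.6%). At day 7 it gave 0 (6.99%), where 2 members and 3411 of all 15622 genes had an unadjusted p under 0.05. The change from day 0 differed for 4 members at day 1, each larger in TdTomato (18.3% and 20.1% of all genes larger and smaller), and for 3 larger and 2 smaller at day 4 (16% and 28.4%). At day 7 it differed for 0 (2.69%), where no member and 1926 of all genes had an unadjusted p under 0.05. With quantile normalization the TdTomato count at day 4 against day 1 was 3, without Fosb and Atf3. Fosl1 changed by 0.97 at TdTomato day 4 against day 1, not called (adjusted p = 0.052), but called at 1.31 without day 1 MC831 and at 1.11 without day 4 MC692. Without EGFP day 7 MC221, and with its TdTomato array kept, Atf3 was called between the populations at day 7 (-1.02, limma adjusted p = 0.024). Without both MC221 arrays the Atf3 difference was -0.52, and within slides 1 and 4 it was -0.29 and -0.37. The Gem difference at day 7 was 1.24 ± 0.52 with the brighter probe (limma adjusted p = 0.17), whose groups did not overlap. The dimmer Gem probe gave 0.51 there, and its groups overlapped. The values of Gem with blocks, given below, are of the brighter probe.

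Both populations of a mouse are paired, and mouse as a block changed several of these calls. Both arrays of a mouse also lay on the same slide, so this block takes up slide as well as animal. The parts of animal and slide in it cannot be told apart. With mouse as a fixed replicate block, 7 members were called between the populations at day 1, adding Fosb (-0.28, limma adjusted p = 0.04), Junb (0.91, adjusted p = 0.011) and Egr1 (0.43, adjusted p = 0.026). At day 4 the block added Fosl2 (-0.75, adjusted p = 0.012) and Jun (-0.29, adjusted p = 0.046), and at day 7 Gem (1.53, adjusted p = 0.0055). Of the differences in change it added Fos at day 1 (-0.44, adjusted p = 0.022), Jun (-0.53), Junb (-1.55) and Atf3 (-0.83) at day 4, which made 8 members, and Gem at day 7 (1.65, adjusted p = 0.019). With mouse as a random replicate block, Fos was also called at TdTomato day 7 against day 4 (0.60, adjusted p = 0.032), for 2 members in place of 1. The shares of all genes called with these blocks are not reported here. The counts thus do not show whether members gained more calls than other genes.

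The arrays lay on 4 slides of 8, 5, 8 and 8 arrays, each holding several groups. With group means removed, Junb ran 0.48 and 0.68 above on slides 1 and 2 and -0.46 and -0.45 on slides 3 and 4. Jun and Egr1 ran the other way on slide 4, at 0.44 and 0.27, with 7 of 8 and 8 of 8 arrays above their group mean. Within slides the changes given next kept their direction. TdTomato day 1 against day 0 gave 6.37 to 8.47 for Gem, 6.28 to 7.92 for Myc, 3.15 to 4.00 for Fosl2 and 0.36 to 3.0 for Fosl1 over 4 slides. TdTomato day 4 against day 0 gave -1.21 to -0.68 for Fos, -1.50 to -1.03 for Fosb, -1.68 to -1.19 for Atf3 and -2.58 to -1.05 for Junb. EGFP day 7 against day 0 gave 1.56 to 3.24 for Fosl1, 2.05 to 4.02 for Myc and 2.29 to 3.37 for Gem over 3 slides. With slide as a block 3 members were called at TdTomato day 7 against day 4, and Gem was called at day 7 between the populations (1.69) and in its difference in change (1.81).

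**Figure D4:**
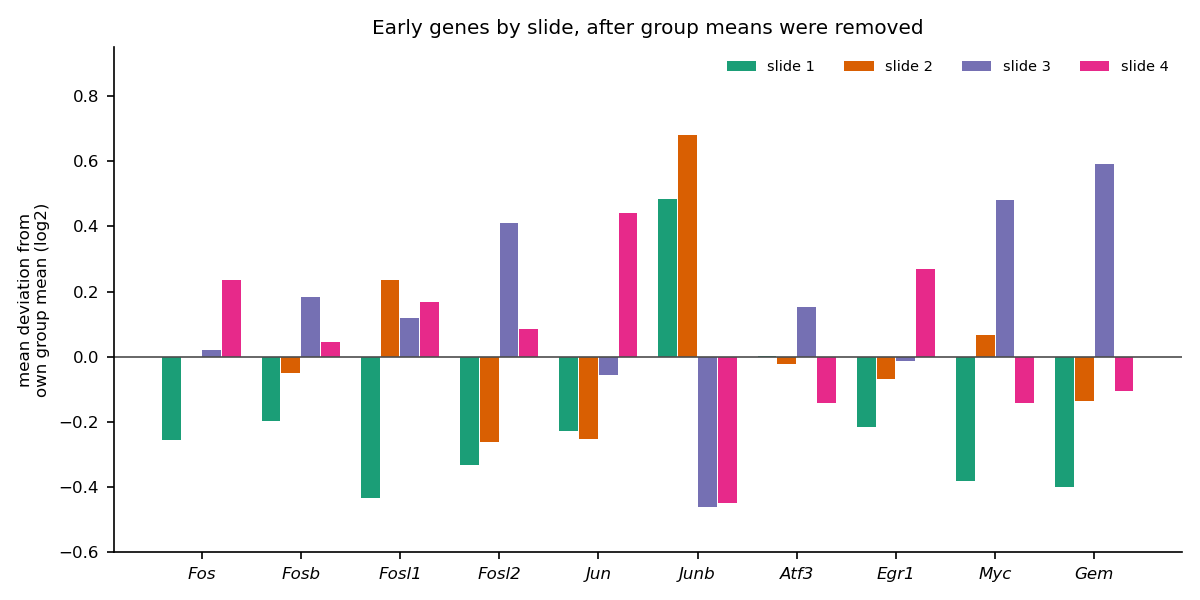
Mean deviation of each early gene from its own group mean (log2, y axis) on slides 1 to 4 (bars). Junb is above on slides 1 and 2 and below on slides 3 and 4, and the bars of Jun and Egr1 are highest on slide 4.

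Counts of related lists are set against the shares of all genes already given for each comparison, 23.8% higher and 27.9% lower at TdTomato day 1 and 21.4% and 35.9% at day 4. Among 10 other AP-1 and small Maf genes, 5 rose and 0 fell in TdTomato at day 1. Batf, a Jun partner in leukocytes, rose by 5.99 ± 0.45 (limma adjusted p = 1.4e-10), Maff by 4.32 ± 0.31, Mafk by 1.28 and Jdp2 by 1.26. At day 4, 4 rose and 3 fell, with Batf at 5.16, Maff at 4.56, Jdp2 at -1.12 and Jund at -0.93, and at day 7, 2 rose (Batf2 1.70 and Maff 1.69). In EGFP none was called on days 4 or 7. Of 28 other immediate early transcription factor genes 14 rose and 4 fell in TdTomato at day 1. Nfil3 rose by 5.62 ± 0.54 (adjusted p = 8.5e-09), Egr4 by 5.42 ± 0.59 (adjusted p = 5e-08) and Klf10 by 4.23 ± 0.31, while Klf2 fell by 2.30 ± 0.36, Id3 by 1.39, Klf4 by 1.35 and Egr2 by 0.77. Of the EGR genes named here, Egr4 rose, Egr2 fell and Egr1 was not called, while Egr3, also in the list, is not reported here. At day 4, 7 of the 28 rose and 5 fell (Btg2 -1.48, Ier2 -1.39), at day 7, 6 rose and 2 fell (Id2 2.52, Npas4 2.45, Ier2 -1.52), and in EGFP at day 7, 3 rose and 1 fell (Npas4 2.62, Snai1 1.53, Nr4a3 -1.15). The list medians at TdTomato day 1 were 0.68 and 0.72, beside -0.13 over all genes.

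Feedback genes and decay genes normally cut early transcripts short. Of 22 MAP kinase phosphatases and other feedback genes 9 rose and 3 fell in TdTomato at day 1 and 3 rose and 10 fell at day 4. Dusp14 rose by 3.78 ± 0.31 (limma adjusted p = 5.8e-10), Dusp8 by 3.63 ± 0.33 and the Ras pathway inhibitor Spry1 by 2.73 ± 0.28 at day 1, and Dusp4 was at least 7.00-fold higher at day 1 and at least 21.3-fold at day 4. The cytokine signalling inhibitors Socs1 and Socs3 fell by 1.33 and 1.09 at day 1. Of 25 AU-rich element and mRNA decay genes 10 rose and 5 fell at day 1 and 4 rose and 9 fell at day 4, which is 40% and 20% at day 1 and, near the shares of all genes, 16% and 36% at day 4. Hnrnpd (AUF1) rose by 1.45 ± 0.19 and the stabilising protein gene Elavl1 by 0.89 ± 0.17, while the decapping enzyme gene Dcp2 fell by 1.95 ± 0.30 and Zfp36l1, whose product binds AU-rich elements, by 0.55 ± 0.18 at day 1. Of 27 MAP kinase and serum response factor genes 6 rose and 9 fell at day 1 (22.2% and 33.3%, near the shares of all genes), with Mapkapk2 at 1.90 ± 0.19, Mapk11 at 1.41 and the cofactor gene Mrtfa at 1.32 against Mapk14 at -1.48, Mapk3 at -1.35 and Mapk9 at -1.35. At day 4, 3 rose and 13 fell, with Rps6ka1 at 2.52 and Srf itself at -1.21. In EGFP none of these 3 lists had a call at day 4. At EGFP day 7 the calls were Rgs2 (-1.47) among the feedback genes, none among the decay genes, and Rps6ka1 (1.48) and Map3k20 (-0.92) among the kinase genes.

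Of 19 measured AP-1 target genes 5 rose and 5 fell in TdTomato at day 1, 9 rose and 1 fell at day 4 and 13 rose and 0 fell at day 7. The day 1 shares of 26.3% each are near those of all genes, and the day 7 share of 68.4% stands beside 10.9% higher among all genes. The protease gene Plau was at least 27.7-fold and Fn1 at least 18.2-fold higher at day 1, and Timp1, the metalloprotease inhibitor gene, rose by 3.59 ± 0.33 at day 1 and 5.38 ± 0.40 at day 7. Itga2 (-2.25), Vim (-1.40) and Hmox1 (-1.40) were among those that fell at day 1. The collagenase gene Mmp13 was at least 13.6-fold and Mmp9 at least 5.46-fold higher at day 4, and Mmp10 at least 8.97-fold at day 7. In EGFP 1 of the 19 rose at day 4 (Timp1, 2.31 ± 0.33, limma adjusted p = 0.00033) and 10 rose at day 7, led by Mmp10 (5.97 ± 0.63, with 1 of 4 day 0 arrays well above background) and Timp1 (5.76 ± 0.33). The list medians were 0.08, 1.20 and 2.39 in TdTomato at days 1, 4 and 7 and 1.18 in EGFP at day 7.

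Of 12 genes of the MYC network 4 rose and 4 fell in TdTomato at day 1 (33.3% each). Zbtb17 (MIZ1) was at least 11.9-fold higher, and Mnt (2.33 ± 0.25), Mga (2.09 ± 0.38) and Mxd1 (1.03 ± 0.18), which encode MAX partners opposed to MYC, rose beside Myc. Mycl (-2.05), Mxd4 (-1.81), Mycn (-0.71) and Mlx (-0.55) fell. Of 22 MYC target genes 13 rose and 4 fell at day 1 and 10 rose and 4 fell at day 4. The ribosome assembly genes Nop58 (3.12 ± 0.23), Nop56 (1.78 ± 0.34) and Rrs1 (1.41 ± 0.17) and the cyclin gene Ccnd2 (2.98 ± 0.39) rose at day 1, and Tfrc (-1.33), Ldha (-1.14), Cdc25a (-0.92) and Hspd1 (-0.77) fell. At day 7 in TdTomato 1 rose (Ccnd2, 2.06) and 2 fell (Tfrc -1.05, Polr1b -0.67), and in EGFP 1 rose (Nme1, 0.77). The list median was 0.71, 0.50 and -0.18 in TdTomato and 0.07 in EGFP at day 7.

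Of 12 EGR target genes 5 rose and 1 fell in TdTomato at day 1, when Egr1 was not called. A link of these genes to Egr1 or another EGR gene was not tested. Icam1 rose by 7.65 ± 0.56 (1 of 4 day 0 arrays well above background), the tissue factor gene F3 by 2.14 ± 0.25 and Cdkn1a by 1.89 ± 0.50, Hpse was at least 3.04-fold higher, and Vegfa fell by 1.00 ± 0.18. At day 4, 4 rose and 2 fell, with Cdkn1a at 4.61 and Thbs1 at -1.03, and at EGFP day 7, 5 rose and 1 fell, with Icam1 at 4.48 and Pdgfa at 2.96. Of 3 RGK genes beside Gem, Rrad rose by 3.66 ± 0.36 (limma adjusted p = 1e-08), 2.26 and 1.87 in TdTomato at days 1, 4 and 7, and none was called in EGFP at day 7. The lists overlap in some genes and were described by counts and medians only.

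**Figure D5:**
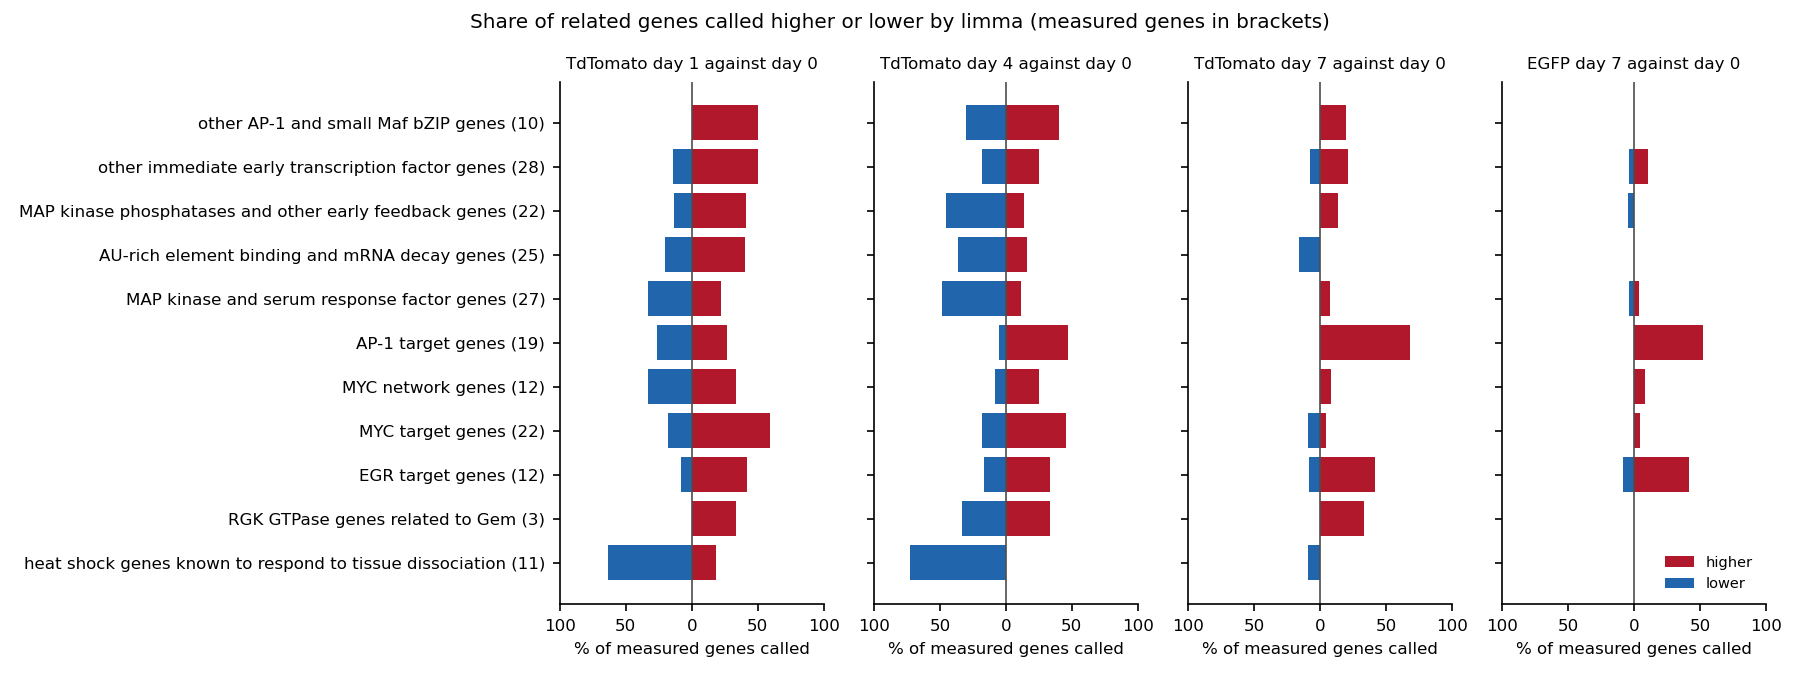
Share of the measured genes of each related list (number in brackets) that limma called higher (right of 0) or lower (left of 0), in percent (x axis), for TdTomato days 1, 4 and 7 and EGFP day 7 against day 0. Of the AP-1 target genes 13 of 19 are higher at TdTomato day 7 and 10 of 19 at EGFP day 7, and 7 and 8 of the 11 heat shock genes are lower at TdTomato days 1 and 4.

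Heat shock genes known to respond to tissue dissociation were followed beside the early genes. Of 11 measured, 2 rose and 7 fell in TdTomato at day 1 and 0 rose and 8 fell at day 4, days on which Fos and Fosb also fell. Hspa1a fell by 2.27 ± 0.78 at day 1 and 2.61 ± 0.78 at day 4 (limma adjusted p = 0.017 and 0.0066), Dnajb1 by 1.66 at both days and Hsph1 by 1.94 at day 1, while Dnajb4 rose by 1.63 ± 0.19 at day 1. The list median was -0.98 and -1.09, and 1 fell at day 7 (Hsp90ab1, -0.56). In EGFP none of the 11 was called at days 4 and 7, and their part in the early gene results was not tested.

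Markers of other cells were read beside the members. Of 10 measured myeloid genes 2 rose at TdTomato day 1 (Csf1r 3.15 and Fcer1g 2.32), 2 at day 4 and 2 at day 7, and none was called in EGFP. Their summed linear signal was 84.0 to 265 at TdTomato day 1, against 38.7 to 56.5 at day 0. The defining marker Cx3cr1 was well above background on no array, Lyz2 and Tyrobp on 1 of 4 arrays each at TdTomato day 1 and none of 4 at day 0, and Ptprc on 3 of 4 and 2 of 4. Of 12 endothelial genes 0 rose and 1 fell (Kdr, -0.71) at TdTomato day 1, 3 rose at day 4 and 7 at day 7, with a summed signal of 55.9 to 97.2 at day 7 against 11.1 to 22.1 at day 0. Of 10 mesangial and smooth muscle genes 0 rose and 1 fell at TdTomato day 1, 3 rose (Cnn1, Myh11 and Gata3) and 1 fell (Pdgfrb) at day 4, 5 rose at day 7, and 3 rose at EGFP day 7 (Acta2, Cnn1 and Des), where the summed signal was 10.3 to 13.5 against 3.28 to 7.40 at day 0. The parietal marker Cldn1 rose by 4.27 at TdTomato day 1 and 2.27 at EGFP day 7, and the proximal tubule marker Cubn by 2.61 at TdTomato day 1, 4.00 at TdTomato day 4 and 2.33 at EGFP day 7. Of 10 proximal tubule genes 1, 2 and 2 rose at TdTomato days 1, 4 and 7 (Cubn, joined by Hnf4a at days 4 and 7), and of 6 parietal genes 1 rose and 0 fell, 1 rose and 1 fell, and 2 rose. Of 4 lymphocyte genes 1 fell at TdTomato day 1 (Cd3e), 2 rose (Cd3d and Cd79a) and 1 fell (Nkg7) at day 4 and 1 rose at day 7 (Cd79a). Of 6 distal nephron genes 1 fell at TdTomato day 4 (Aqp2), and of 2 erythrocyte and platelet genes 1 rose at TdTomato day 7 (Pf4). The proximal tubule list summed to 3.48 to 184 at TdTomato day 4 (median 4.28) against 1.23 to 16.2 at day 0 (median 5.46). The EGFP endothelial sum stayed at 9.07 to 19.8 over all days. The part of these cells in the results on the 10 early genes was not tested.

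Genes outside the 10 whose 8 group means ran most like a member's were sought among 11343 genes whose group means span at least 1 log2 unit. These correlations are over 8 means that share arrays and are a description. For Gem they were Nfkbid (r = 0.995), Icam5 (0.99) and Cdh22 (0.99). For Myc they were Hmgn1, Icam4 and Samd14 (0.99 each), and for Fosl1 Nrip3 (0.99), Csf1 (0.98) and Syt1 (0.98). The course of Fos was most like those of Uaca (0.99), Calcoco1 (0.98) and Rhox1 (0.98), that of Atf3 like Cnot6l (0.96), Il6ra (0.96) and Oas1d (0.95), and that of Egr1 like Ino80b (0.97) and Olfr1306 (0.96). The group means of Egr1 themselves span 0.63 log2 and those of Fos 0.98.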

How the data were processed

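Per the labels, podocytes were sorted on a FACSAria and 0.1 µg of their RNA was labelled with Cy3. The intensity of each spot was read and background-corrected by Agilent Feature Extraction 11.5.1.1, per the submitters' processing notes, and deposited as a processed signal, with 62976 spots an array. The authors also deposited log2 values in a series matrix, on a scale not given in the sources used here, and these served as an alternative.

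The processed signal was turned into log2 and the array's 75th percentile was subtracted. Spots with outlier marks were set aside, and a probe was kept if well above background on at least 3 of 29 arrays, which left 38187 probes. RefSeq accessions gave 26576 of 55681 probes a symbol, 29105 had none, and taking the brightest probe a gene left 15622 genes, with 48 values missing. No column belonged to an unknown sample. For "at least" folds, the lower group was set, per array, at the lowest signal well above background or the probe's own signal, whichever was higher. Such folds hold for the scanner's processed signal only.

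The test was limma's (version 3.58.1, R 4.3.3) with 8 group means on all 29 arrays, Benjamini-Hochberg adjustment at 0.05 and 17 comparisons. The fit was tested on simulated data with independent noise in each array, with a result not reported here. Such data do not hold the correlation between both arrays of a mouse. Tables were made with pandas 2.3.3 and numpy 2.4.6 in Python 3.11.15 and figures with matplotlib 3.10.9. The number of arrays limits the precision. The 10 members and all lists were chosen with earlier results of these data known. The text names every member, up to 4 called genes a list and direction at TdTomato day 1 and up to 2 elsewhere, and the 3 genes most like 6 of the members. Some genes named by this rule are not reported here.

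The populations of a mouse come from the same animal, so mouse is a replicate block. Both arrays of a mouse also lay on the same slide, so the block and the correlations given next hold slide as well as animal. With group means taken off, both arrays of a mouse correlated at 0.0415 to 0.636 over 13 mice, with a consensus of 0.596. Alternatives were this block, normexp (offset 50, on median spot signals), quantile normalization, the filter, the probe rule, outlier spots, the authors' values, the groups in the fit, slide, and leaving out each array or both MC221 arrays.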

Additional observations from a re-analysis of the deposited data

Results flagged for a closer look

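Jun in EGFP podocytes at day 0 read 9.62 in mouse MC122, far from the 8.83 to 8.95 of the other mice. Junb in EGFP podocytes at day 7 read 2.12 in mouse MC221, far from the 3.51 to 3.79 of the others, and MC221 is the mouse whose day 7 files did not match the authors' matrix. These were 2 of 60 groups tested for an outlying array, and chance flags about 1 in 20 groups. Both flagged arrays lay on slide 4, where Jun was above its group mean on 7 of 8 arrays and Junb below on 7 of 8. The part of slide and of the file mismatch in these values was not tested.

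The change from day 0 differed between TdTomato and EGFP podocytes by limma's interaction term for 4 members at day 1, with values of 2.60 for Fosl1, 4.09 for Fosl2, 6.77 for Myc and 6.97 for Gem. It differed for 5 members at day 4, with values of -1.07 for Fos, -1.27 for Fosb, 2.37 for Fosl1, 4.58 for Myc and 6.14 for Gem. Each is the log2 change in TdTomato minus that in EGFP. The sizes for Myc are not exact, since most day 0 arrays were not well above background for it.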

How the results depend on the processing

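The 170 results are those of each member in each comparison. Of their 3240 alternative values, 3153 kept their side of the threshold, 35 lost a call, 52 gained one, and none that was called reversed. A value that kept its side could still differ in size. Among the 3153, 100 values that were not called changed sign. The members called at TdTomato day 7 against day 0 numbered 5, but 3 with quantile normalization, 3 with only both groups in the fit and 3 without both MC221 arrays. TdTomato day 4 against day 1 gave 5, and 3 with quantile normalization. TdTomato day 7 against day 4 gave 1, but 2 with normexp, 3 with quantile normalization, 2 with the authors' values, 2 with mouse as a random replicate block and 3 with slide as a block. TdTomato against EGFP gave 4 at day 1 and 7 with the replicate block, and 0 at day 7 but 1 with the authors' values, 1 with the replicate block and 1 with slide. The difference in change gave 5 at day 4 and 8 with the replicate block, and 0 at day 7 but 1 with the replicate block and 1 with slide. The replicate block changed no other count of members by over 1.5 times. Leaving out 1 array at a time gave 3 to 5 members at TdTomato day 7 against day 0, 4 to 6 at day 4 against day 1, and 0 to 1 between the populations at day 7. Without a filter the all-gene median at TdTomato day 4 was nearer 0. The cause of these shifts was not tested. The share of all genes called under each alternative is not reported here. The counts thus do not show whether members shifted more than other genes. Myc was well above background on 0 of 4 TdTomato and 1 of 4 EGFP arrays at day 0, which limits its fold changes.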
